A study of Mus musculus with 6 samples.

Results

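The Slc25 genes encode the mitochondrial carriers, and 41 of them were measured among 20677 genes on mouse arrays of cardiac cells. Members were the genes whose symbol starts with Slc25a, taken from 88 probe sets that each name 1 gene. Where several probe sets named a gene, the brightest on average over all 6 arrays stood for it. The groups were CPC, progenitor cells grown out of adult cardiomyocytes that had dedifferentiated and divided in prolonged culture (3 arrays), and Ctl, freshly isolated adult cardiomyocytes (3 arrays). Both groups came from bi-transgenic mice. The labels do not name the alleles. The bi-transgenic mice that the study generated carried a tamoxifen-inducible Cre and a red-to-green fluorescent reporter. The Cre was driven by the αMHC promoter, which is active in cardiomyocytes. The paper also names an earlier bi-transgenic line its authors had used, with the Z/EG reporter, in which tamoxifen switches on green fluorescence in cardiomyocytes. Nothing ties the arrays to either line. Time in culture, animal age, tamoxifen treatment, the number of cells on an array and the number of animals are not given in the sources used here. Cells were captured singly by a microfluidic device, and their cDNA was amplified. The p-values therefore measure the spread between these 6 arrays, which may be technical.

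Mitochondrial carriers sit in the inner membrane, which small charged molecules cannot cross unaided, and most of them exchange a metabolite of the matrix for one of the cytosol. They bring ADP in and ATP out, take acylcarnitines to beta-oxidation, and carry the malate, oxoglutarate, aspartate and glutamate through which reducing equivalents of cytosolic NADH reach the matrix. Adult cardiomyocytes, which draw most of their ATP from oxidation, are rich in mitochondria and in carriers of these steps. Other carriers supply cofactors, nucleotides, iron and glutathione and are used in many cell types.

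For 31 of the 41 members RefSeq sequence upstream of a transcript start was given (GRCm38.p6, 250 bases before the start). They include 7 of the 8 members that changed. Shown are the windows of Slc25a20, the acylcarnitine carrier, and of Slc25a4, the ADP/ATP carrier of heart muscle, which both fell in more than 1 probe set. Slc25a20 lies at chr9:108661886-108662135 on the plus strand and Slc25a4 at chr8:46211063-46211312 on the minus strand, each window ending at the base before the gene, and no letters are in capitals because none of the motifs searched occurs in them.
Slc25a20: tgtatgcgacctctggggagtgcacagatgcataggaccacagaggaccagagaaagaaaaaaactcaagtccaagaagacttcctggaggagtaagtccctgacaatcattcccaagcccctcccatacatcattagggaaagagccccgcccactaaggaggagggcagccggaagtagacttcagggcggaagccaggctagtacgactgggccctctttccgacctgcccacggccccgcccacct
Slc25a4: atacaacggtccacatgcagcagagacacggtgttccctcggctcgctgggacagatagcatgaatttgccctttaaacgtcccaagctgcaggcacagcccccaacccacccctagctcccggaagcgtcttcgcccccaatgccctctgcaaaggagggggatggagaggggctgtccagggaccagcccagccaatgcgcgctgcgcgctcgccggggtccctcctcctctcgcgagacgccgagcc

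The letters searched, on both strands, were AAGGTCA (a half-site of estrogen-related receptors), GCGCATGC (the core bound by NRF1), CACGTG (an E-box) and TGACGTCA (a cyclic AMP response element). No motif overlapped another in the windows of the members that changed. AAGGTCA occurred in 4.08% of all 32851 windows and, among members, in that of Slc25a34 alone. GCGCATGC occurred in 2.26% of all windows and, among members, in that of Slc25a31 alone. CACGTG occurred in 6.02% of all windows and in those of 7 members, of which Slc25a13 changed. TGACGTCA occurred in 1.55% of all windows and in those of Slc25a25 and Slc25a36. Of 3 starts given for Slc25a25, the one with the match lies within the gene. Printed next are 30 bases around each match in a member that changed, with the motif in capitals, from chr6:6217281-6217310 and chr2:32424198-32424227, both on the minus strand.
Slc25a13, E-box: cacagtctgagtCACGTGtcctggcccctc
Slc25a25, cyclic AMP response element: tctgcaagcagTGACGTCAgtcctgatctt

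All levels below are log2 RMA intensities and all differences are CPC minus Ctl on that scale. RMA scales the arrays to each other, so a level is relative to the rest of its array, and fewer mitochondria-rich cells on an array and less carrier RNA per cell cannot be told apart. Array medians lay between 7.32 and 7.47, and 6.55, the highest lower quartile of an array, was taken as background. CPC arrays differed more among themselves (pairwise r from 0.7917 to 0.8575 over probe sets) than Ctl arrays (0.9328 to 0.9712). All 6 cardiomyocyte markers fell in CPC, with a summed linear intensity of 909 to 1190 against 88900 to 92100 in Ctl, and single levels between 6.11 and 8.80 in CPC and between 13.19 and 14.32 in Ctl. Of 6 fibroblast markers, Col1a1 rose, and their sum was 4740 to 7350 against 1640 to 4210. The sum of 4 endothelial markers, of which 0 changed, was 681 to 916 against 781 to 1830. That of 4 smooth muscle markers was 1530 to 5230 against 2160 to 8730. Among these Rgs5 fell, whereas Acta2 was higher on every CPC array (9.24, 12.07 and 11.75 against 9.13, 8.44 and 9.16). The Acta2 difference of 2.11 did not pass (limma adjusted p = 0.197). The sum of 4 immune markers, of which 0 changed, was 1120 to 1310 against 829 to 867. The 3′ minus 5′ difference of the Actb control was 0.141 in CPC and -0.599 in Ctl (exact two-sided permutation p = 0.1, the smallest that 3 against 3 arrays allow), and that of the Gapdh control was 2.72 and 2.04 (exact permutation p = 0.3). For Gapdh, CPC 3 stood at 3.53 and all other arrays between 1.77 and 2.55. The part of these differences in the results on carriers was not tested.

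Of the 41 carriers 6 fell in CPC, 2 rose and 33 did not pass the test. Slc25a20, Slc25a11, Slc25a16, Slc25a13, Slc25a12 and Slc25a4 fell, by 1.27 to 4.88 on the log2 scale, and Slc25a25 and Slc25a37 rose, by 2.81 and 2.00. The 6 falls were 14.6% of members, against 4.47% of all genes (limma, Benjamini-Hochberg adjusted p under 0.05 over 45037 probe sets). The 2 rises were 4.88% of members, against 1.15% of all genes. Both were read in probe sets that were the brightest of their gene only through CPC, and those brightest in Ctl did not pass. At an unadjusted p under 0.05, 11 members were lower (26.8%, against 10.2% of all genes) and 2 higher (4.88%, against 11% of all genes), so at that threshold the share of rises was below that of all genes. Without overlap between groups, 9 members were lower on every CPC array than on any Ctl array (22% of members and 11% of all genes). Another 6 were higher on every CPC array (14.6% of members and 21.9% of all genes). The median difference was 0.096 over the members and 0.19 over all genes, and 18 of the 41 differences were below 0. The summed linear intensity of the members was 22860 to 26480 on the CPC arrays and 42520 to 47540 on the Ctl arrays. That sum is set mostly by the brightest probe sets, above all that of Slc25a4 (log2 mean 12.36 in CPC and 13.63 in Ctl). Levels of different probe sets are not comparable, so the sum does not describe the typical member. The number of falls was 5 without CPC 1, 3 without Ctl 1 or without Ctl 2 and 2 without Ctl 3. The number of rises was 1 without Ctl 1 or without Ctl 2. Dim probe sets can hardly be called, and they count in the shares of all genes. Among probe sets brighter than the median one, 5 of 33 members and 970 of 12705 genes were lower. In that setting 2 members and 258 genes were higher.

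**Figure D1:**
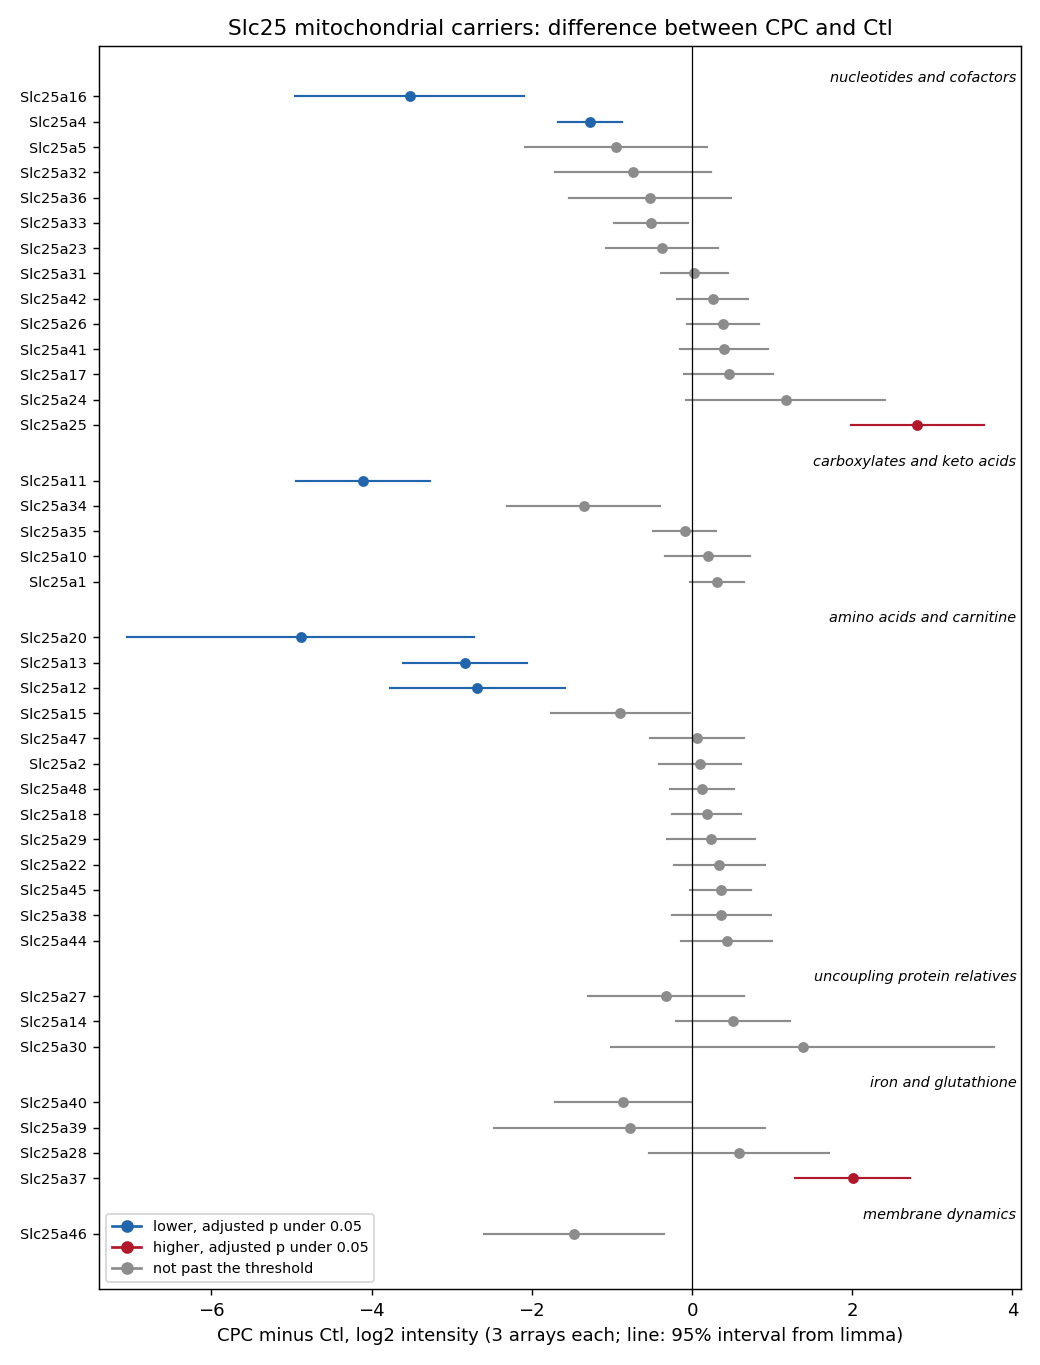
Difference between CPC and Ctl (horizontal axis, log2 intensity) for 40 of the 41 carriers, grouped by what they carry; points are differences of means of 3 arrays each and lines are 95% intervals from limma. Blue marks the 6 carriers that passed the threshold as lower, from -4.88 for Slc25a20 to -1.27 for Slc25a4, and red the 2 that passed as higher, Slc25a37 and Slc25a25.

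Among the 13 carriers of amino acids and carnitine, 3 fell and none rose. Slc25a20 exchanges acylcarnitine for carnitine and so delivers fatty acids to beta-oxidation. It was at 9.79, 6.63 and 6.39 on CPC 1, 2 and 3 and at 12.58, 12.40 and 12.49 on Ctl 1, 2 and 3 (probe set 1423108_at). The groups did not overlap, CPC 1 stood well above the other CPC arrays, and CPC 3 was at background. On this probe set the fall was at least 28.5-fold (difference -4.88, SE 0.892, adjusted p = 0.0323), and without CPC 1 the difference was -5.97. The other probe set of the gene gave a smaller fall, 15.2-fold (-3.93, limma adjusted p = 0.00145), with CPC arrays between 7.74 and 7.99, above background. The size of the fall thus depends on the probe set. On the first probe set the gene no longer passed when CPC 2, CPC 3 or any Ctl array was left out (largest adjusted p = 0.127).

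Slc25a12 and Slc25a13, the aspartate-glutamate carriers called aralar and citrin, move aspartate out of the matrix in the malate-aspartate shuttle. Slc25a13 had CPC levels of 7.12, 7.66 and 7.36 and Ctl levels of 9.91, 10.86 and 9.87. It was 7.13-fold lower in CPC, every CPC array lying more than 2 log2 units below every Ctl array (-2.83, SE 0.319, adjusted p = 0.00569), and the call held when any 1 array was left out. For Slc25a12 the CPC arrays read 7.60, 5.86 and 6.68, and the Ctl arrays 9.09, 9.71 and 9.40. CPC 2 was at background there, and the fall was at least 5.47-fold (-2.68, SE 0.450, adjusted p = 0.0243). It no longer passed when CPC 3 or any Ctl array was left out, and its other probe sets, with levels of 5.92 to 7.13 on both groups' arrays, gave -0.10 and 0.059.

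The other members of the group did not pass. Slc25a15, which carries ornithine for the urea cycle, was at -0.89 (adjusted p = 0.234) and overlapped between groups. The glutamate carriers Slc25a22 (7.60, 7.60 and 8.15 in CPC against 7.22, 7.38 and 7.73 in Ctl) and Slc25a18 (7.12, 7.27 and 7.52 against 7.16, 7.23 and 6.95) stood near the array medians, at differences of 0.34 and 0.18. Slc25a29, a carrier of basic amino acids, had CPC levels of 8.54, 8.76 and 9.21 and Ctl levels of 8.80, 8.54 and 8.46 (0.24). The ornithine carrier Slc25a2, the glycine carrier Slc25a38, the branched-chain amino acid carrier Slc25a44, and Slc25a45, Slc25a47 and Slc25a48 lay between 0.059 and 0.43. Slc25a45 was higher on each CPC array than on any Ctl array, with levels of 7.62 to 7.76 against 7.17 to 7.48.

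Among the 5 carriers of carboxylates and keto acids, 1 fell. Slc25a11 exchanges oxoglutarate for malate, the step that pairs with aralar and citrin in the malate-aspartate shuttle. Its levels were 6.85, 6.09 and 6.84 in CPC and 10.23, 11.26 and 10.61 in Ctl (1426586_at, its one probe set). CPC lay near background on all arrays, and the fall was at least 15.5-fold (-4.11, SE 0.344, adjusted p = 0.00185). Leaving out any 1 array kept the call, with adjusted p from 0.00483 to 0.0144. Slc25a34, a carrier of uncertain cargo, was lower without overlap (8.68, 9.07 and 9.80 against 10.32, 11.16 and 10.11), but its difference of -1.35 did not pass (adjusted p = 0.131). The citrate carrier Slc25a1, which supplies cytosolic acetyl groups for lipid synthesis, was at 7.68 to 7.79 in CPC and 7.34 to 7.46 in Ctl, without overlap (0.31, adjusted p = 0.275). Slc25a10, which exchanges malate or succinate for phosphate, lay at 8.17, 8.33 and 8.67 in CPC and at 8.04, 8.06 and 8.50 in Ctl (0.19). Slc25a35 was at background on all arrays.

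Of the 15 carriers of nucleotides and cofactors, 2 fell and 1 rose. Slc25a4, the ADP/ATP carrier of heart and skeletal muscle, was at 12.26, 12.54 and 12.28 in CPC and at 13.48, 13.69 and 13.71 in Ctl. On this probe set CPC stayed high and lay 2.41-fold below Ctl (-1.27, SE 0.164, limma adjusted p = 0.0093). The call was lost without Ctl 3 (limma adjusted p = 0.0562). The probe set, 1455069_x_at, is of a kind that can match other transcripts. Its other 3 probe sets gave -1.29, -1.78 and -2.50, of which -1.29 and -2.50 passed. Their mean CPC levels were 7.63, 10.33 and 11.47 in that order, so the level kept in CPC depends on the probe set. Slc25a5, the ADP/ATP carrier of most other tissues, had CPC levels of 11.94, 11.25 and 10.05 and Ctl levels of 12.06, 12.10 and 11.93. Only CPC 2 and CPC 3 fell below the Ctl range by more than 0.5, and the difference of -0.95 did not pass (adjusted p = 0.305). Over its 8 probe sets, most of a kind that can match several transcripts, the difference ran from -1.33 to 0.45 and none passed. Probe sets 1436874_x_at, 1438360_x_at, 1438922_x_at and 1430542_a_at were lower on every CPC array than on any Ctl array, and the others overlapped. Slc25a31, the ADP/ATP carrier of germ cells, was at background on all 6 arrays (4.89 to 5.29).

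Slc25a16, linked to the supply of coenzyme A to the matrix, was at 4.71, 5.08 and 6.49 in CPC and at 8.76, 9.83 and 8.27 in Ctl. All CPC arrays were at background, and the fall was at least 5.28-fold (-3.52, SE 0.589, adjusted p = 0.0239). The call rests on 1 probe set and did not hold when CPC 1, CPC 2 or any Ctl array was left out (largest adjusted p = 0.085). Slc25a42, the coenzyme A carrier of the inner membrane, had CPC levels of 9.33, 9.51 and 9.74 and Ctl levels of 9.36, 9.08 and 9.38, a difference of 0.26 (adjusted p = 0.438).

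Slc25a25, a calcium-regulated carrier that exchanges ATP-Mg for phosphate and so sets the adenine nucleotide content of the matrix, rose. The CPC arrays gave 10.86, 11.42 and 10.98 and the Ctl arrays 8.91, 8.20 and 7.70. CPC was 7.02-fold higher without overlap (2.81, SE 0.341, adjusted p = 0.00754), and leaving out any 1 array kept the call. This probe set, 1447856_x_at, is of a kind that can match other transcripts. The other 2 probe sets gave 0.57 and 0.27 and did not pass, and without such probe sets the gene was not called. Its relative Slc25a24 was at 9.54, 7.49 and 8.47 in CPC and at 7.19, 7.17 and 7.62 in Ctl, a difference of 1.17 that rests mostly on CPC 1 and CPC 3 (adjusted p = 0.265). The other carriers of this type, Slc25a23 (-0.38) and Slc25a41 (0.40), did not pass.

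The pyrimidine nucleotide carriers did not pass. Slc25a33 was lower without overlap, at 8.76, 8.45 and 8.87 against 9.15, 9.05 and 9.41 (-0.51, adjusted p = 0.21). Slc25a36 read 9.15, 8.57 and 8.22 in CPC and 9.59, 8.35 and 9.55 in Ctl (-0.52, adjusted p = 0.479). One of the 2 other probe sets of Slc25a36, 1419656_at, was lower by itself (-1.24, SE 0.181, adjusted p = 0.0144). The folate carrier Slc25a32 (-0.74), the S-adenosylmethionine carrier Slc25a26 (0.39) and the peroxisomal carrier Slc25a17 (0.46) did not pass either. The probe sets of Slc25a26 went opposite ways, the second being at -1.39 with no overlap and adjusted p = 0.161.

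Among the 4 carriers of iron and glutathione, 1 rose. Slc25a37, one of the mitoferrins that bring iron to haem and iron-sulphur cluster synthesis and the one known from red cell precursors, was at 8.68, 9.49 and 9.54 in CPC and at 7.21, 6.94 and 7.55 in Ctl. CPC was 4.01-fold higher without overlap (2.00, SE 0.297, adjusted p = 0.015). The call was lost without Ctl 1 or without Ctl 2 (largest adjusted p = 0.0718), and the second probe set missed the threshold at 0.79 (adjusted p = 0.313). Slc25a28, the mitoferrin of most tissues, lay at 9.02, 7.28 and 7.63 in CPC and at 7.41, 7.13 and 7.63 in Ctl, with CPC 1 apart from the other arrays (0.59, adjusted p = 0.474).

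The glutathione carriers did not pass. Slc25a39 was at 11.41, 9.01 and 11.50 in CPC and at 11.20, 11.87 and 11.19 in Ctl, with CPC 2 apart from the other arrays (-0.78, adjusted p = 0.522). Its 5 probe sets ran from -0.78 to 0.87. Slc25a40 was at 8.74, 8.15 and 8.10 in CPC and at 9.79, 8.60 and 9.18 in Ctl (-0.86, adjusted p = 0.239).

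The relatives of the uncoupling proteins, Slc25a14 (0.51), Slc25a27 (-0.33) and Slc25a30 (1.38), did not pass. Slc25a30 varied most, with 10.21 on CPC 2 and 5.96 to 8.14 on all other arrays. Slc25a46, a member that sits in the outer membrane and acts in mitochondrial fission and fusion, was at 11.06, 11.48 and 9.68 in CPC and at 12.08, 12.32 and 12.25 in Ctl. The groups did not overlap, but the difference of -1.48 did not pass (adjusted p = 0.154).

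**Figure D2:**
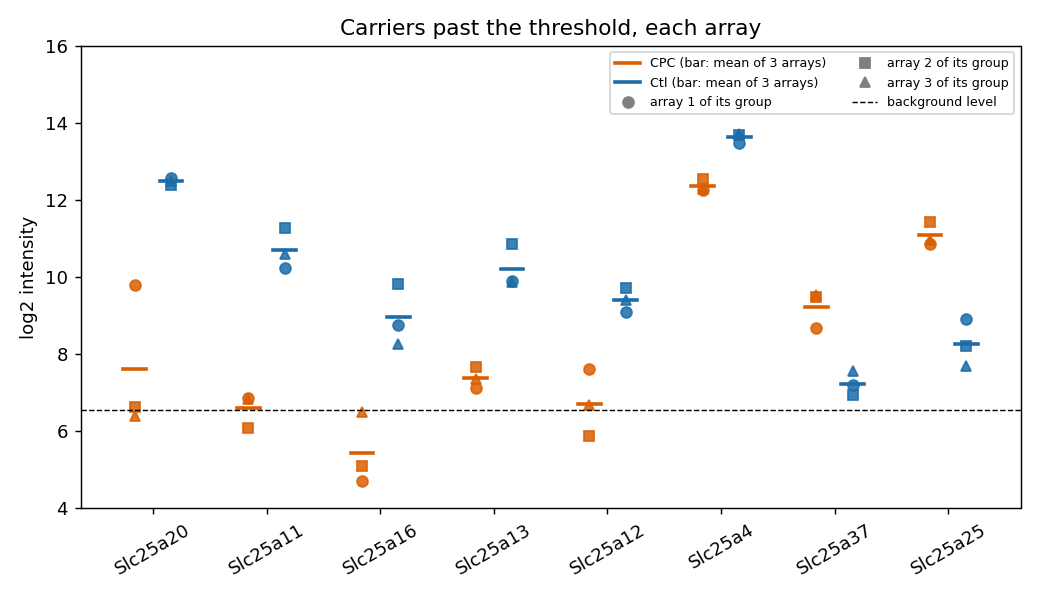
Log2 intensity (vertical axis) of the 8 carriers past the threshold on each of the 3 CPC arrays (orange) and 3 Ctl arrays (blue); symbols mark the array number, bars the group means and the dashed line the background level of 6.55. No carrier shown overlaps between the groups, and CPC 1 lies apart from the other CPC arrays for Slc25a20, at 9.79 against 6.63 and 6.39.

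Probe sets of 1 gene did not always move alike. Of the 88 probe sets, 10 passed as lower and 2 as higher, and 22 members had several. The falls of Slc25a20 and Slc25a4 were seen in more than 1 probe set. Those of Slc25a11, Slc25a13 and Slc25a16 rest on the only probe set of each gene. The fall of Slc25a12 and the rises of Slc25a25 and Slc25a37 were called in 1 of several. For both rises the probe set read was the brightest only through its CPC levels. In Ctl it averaged 8.27 for Slc25a25, against 8.46 for 1424735_at, and 7.23 for Slc25a37, against 7.29 for 1430374_at. The choice by mean over both groups thus favoured the rise. The probe sets brightest in Ctl gave 0.57 and 0.79 and did not pass. For Slc25a20 the probe set read was the brightest only through its Ctl levels and gave the larger fall. In CPC it averaged 7.60, against 7.89 for 1423109_s_at. For Slc25a4 it was the brightest only through CPC, with 13.63 in Ctl against 13.97 for 1424562_a_at, and gave the smaller fall. Slc25a26 too was read where only CPC was brightest, with 7.70 in Ctl against 8.57 for 1428929_s_at.

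**Figure D3:**
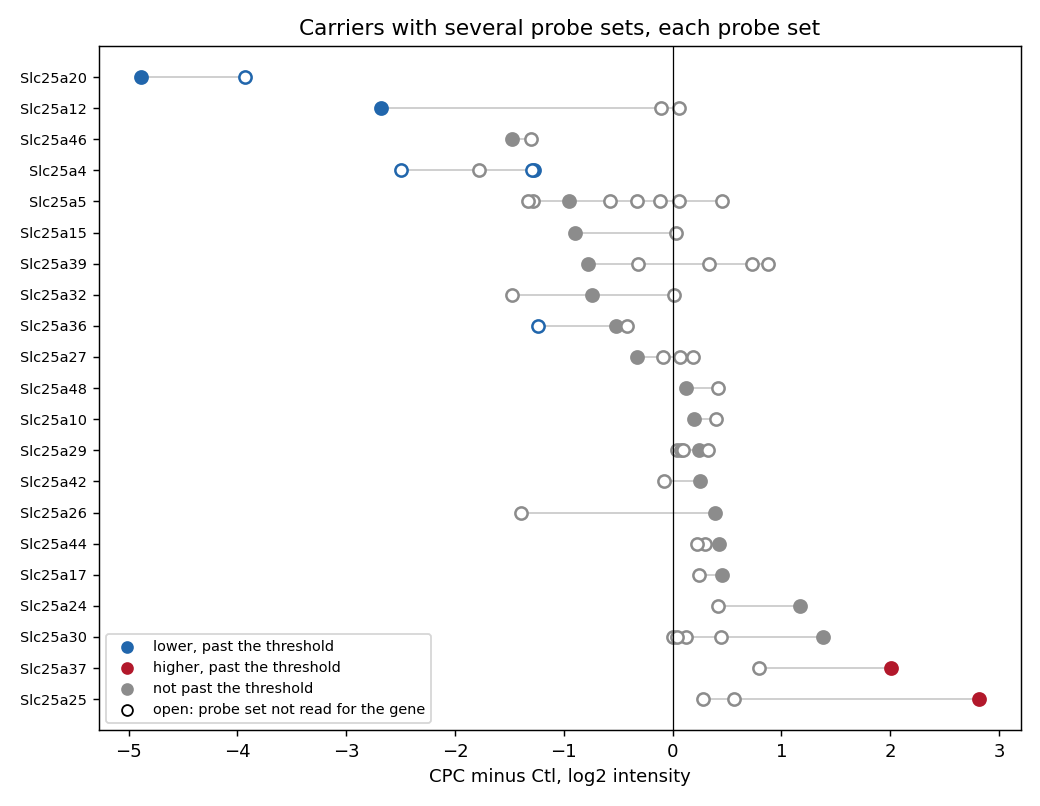
Difference between CPC and Ctl (horizontal axis, log2 intensity) for every probe set of 21 of the 22 carriers that have several; filled points are the probe set read for the gene and open points the others, coloured by the test. The probe sets of Slc25a20 lie at -4.88 and -3.93, whereas those of Slc25a25 spread from 0.27 to 2.81 and those of Slc25a26 from -1.39 to 0.39.

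Carriers were set against each other on the same array in 10 pairs, which asks whether one member changed more than the other. The pairs were of the same or a like cargo, except Slc25a20 and Slc25a29. These were paired as neighbours in the carnitine family and differ in cargo. Levels of different probe sets are not comparable, so only the change between groups in their difference was read. Slc25a20 minus Slc25a29 changed by -5.12 from Ctl to CPC, at -1.23 ± 2.18 against 3.89 ± 0.13 (SD, n = 3 each). Slc25a11 minus Slc25a10 changed by -4.30, at -1.80 ± 0.46 against 2.50 ± 0.61 (SD, n = 3 each), and Slc25a16 minus Slc25a42 by -3.78, at -4.10 ± 0.74 against -0.32 ± 0.96 (SD, n = 3 each). Slc25a16 was at background on all CPC arrays, and Slc25a20 and Slc25a11 on 1 each, so these are differences of measured values, and their size is not fixed. In these 3 pairs the groups did not overlap, which gives the smallest p that the design allows (exact two-sided permutation p = 0.1 for each; adjusted over the 10 pairs 0.333), so none could pass.

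In the other 7 pairs the groups overlapped. Slc25a24 minus Slc25a25 changed by -1.64 (exact permutation p = 0.2), and Slc25a28 minus Slc25a37 by -1.41 (exact permutation p = 0.4). The ADP/ATP carriers Slc25a4 and Slc25a5 differed by 1.28 ± 0.96 in CPC and 1.60 ± 0.18 in Ctl (SD, n = 3 each), a change of -0.32 that is smaller than the spread over CPC arrays. Both probe sets read are of a kind that can match other transcripts. Among those not of that kind, the brightest changed by -2.50 for Slc25a4 (1424562_a_at) and by -0.33 for Slc25a5 (1430542_a_at). Whether these carriers moved alike thus depends on the probe set. Slc25a12 minus Slc25a13 changed by 0.15, Slc25a22 minus Slc25a18 by 0.16, Slc25a33 minus Slc25a36 by 0.012 and Slc25a39 minus Slc25a40 by 0.080, each within the spread between arrays.

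**Figure D4:**
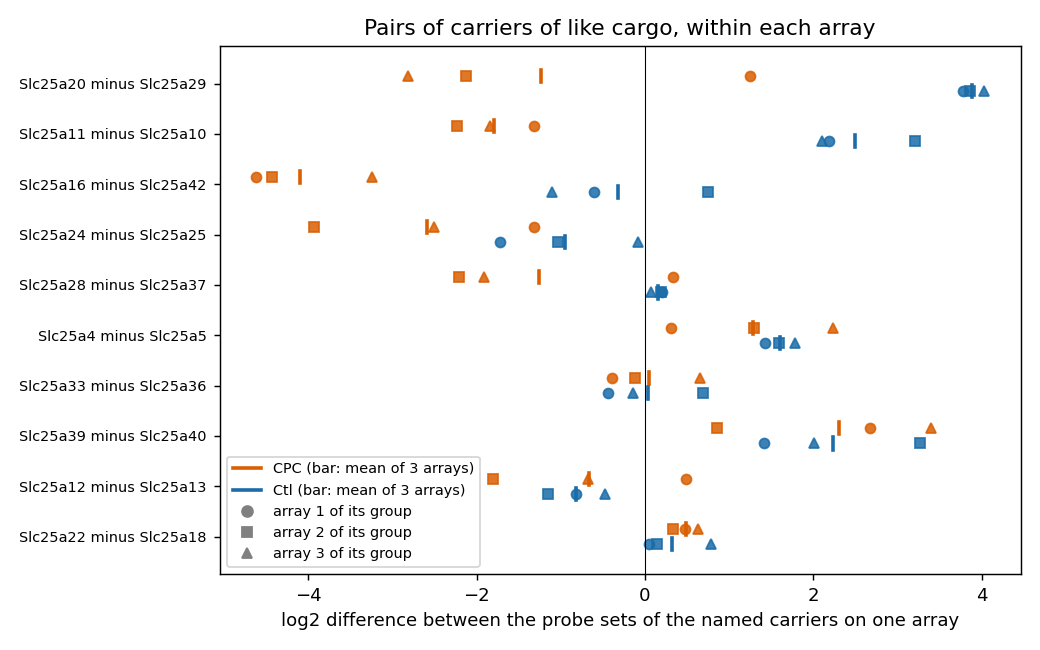
Log2 difference between the probe sets of 2 paired carriers on the same array (horizontal axis), for 10 pairs, of like cargo except Slc25a20 and Slc25a29; orange symbols are the 3 CPC arrays, blue symbols the 3 Ctl arrays, and bars the group means. The groups are apart for Slc25a20 minus Slc25a29, Slc25a11 minus Slc25a10 and Slc25a16 minus Slc25a42 and overlap for the other 7 pairs.

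Genes that insert, supply or use the carriers were listed in 8 groups with 48 measured genes, of which 9 were lower in CPC and 1 was higher. Over all genes the shares were the 4.47% and 1.15% given above. In the malate-aspartate shuttle, 2 of 4 enzymes fell, with a median of -2.49: Got1 (cytosolic aspartate aminotransferase, -4.20) and Mdh1 (cytosolic malate dehydrogenase, -2.11). Their mitochondrial forms Got2 (-2.87, adjusted p = 0.143) and Mdh2 (-1.20, adjusted p = 0.0654) did not overlap between groups and did not pass. In the carnitine shuttle, 1 of 5 fell, Cpt2, the inner membrane palmitoyltransferase that takes over the acylcarnitine brought by Slc25a20. It was at 7.09, 6.98 and 7.12 in CPC and at 10.01, 10.48 and 10.01 in Ctl (-3.10, SE 0.188, adjusted p = 0.000599).

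Of the 3 outer membrane channels through which most carrier substrates pass, Vdac3 (-2.40) and Vdac1 (-1.34) fell. Vdac2 (-2.47) did not pass (limma adjusted p = 0.165). Ckmt2, the mitochondrial creatine kinase that uses the ATP exported by Slc25a4, was at 6.72, 6.53 and 7.40 in CPC and at 13.55, 13.84 and 13.80 in Ctl. Its fall was at least 114-fold (-6.85, adjusted p = 0.000176), and Ckm, the cytosolic muscle form, fell by 1.64, with 2 of 4 genes of the phosphocreatine shuttle lower. Of 7 other metabolite carriers of the inner membrane, Mpc2, a subunit of the pyruvate carrier, fell by 3.95 (adjusted p = 0.0469). Its partner subunit Mpc1 missed the threshold at -2.50 (adjusted p = 0.207). Of 7 genes of the calcium uniporter, Micu2, a gatekeeper, fell by 2.05 and Mcub, a pore subunit that lowers uniporter activity, rose at least 2.15-fold, with all Ctl arrays at background (adjusted p = 0.0473).

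None of 13 genes of the machinery that inserts carriers into the inner membrane passed. Their median was 0.015 and their range -1.92 to 1.72. At an unadjusted p under 0.05 (limma), 1 was lower and 2 were higher, where all genes had 10.2% and 11%. The lower gene was Timm29 (-1.92, SE 0.697, no overlap). The higher genes were Timm13 (1.72, SE 0.607) and Tomm20 (0.87, SE 0.211, no overlap). Timm22, the pore of the carrier translocase, was at 9.63, 9.13 and 8.86 in CPC and at 8.90, 9.51 and 9.17 in Ctl (0.015, SE 0.266). Tomm70a, the outer membrane receptor for carriers, was at 0.10 (SE 0.558), with CPC arrays from 10.83 to 13.06. None of 5 uncoupling proteins and homologues with other names passed (median -0.16; at an unadjusted p under 0.05, 0 lower and 1 higher, beside the same 10.2% and 11%), with Ucp2 at -0.16 and Ucp3 at -0.37. Leaving out 1 array gave 5 falls (without Ctl 1 or without Ctl 2) to 14 (without CPC 1) over the 48 genes, and Mcub no longer passed when CPC 1 or any Ctl array was left out.

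**Figure D5:**
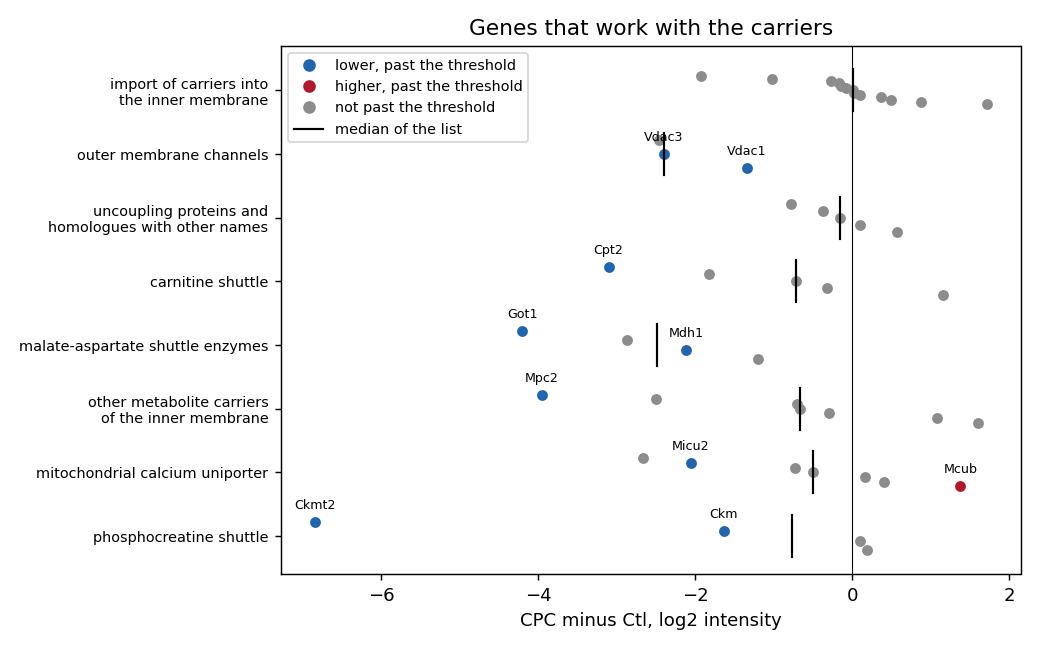
Difference between CPC and Ctl (horizontal axis, log2 intensity) of 48 genes that work with the carriers, in 8 lists; blue and red points passed the threshold as lower and higher and are named, and black lines are list medians. Ckmt2 lies farthest to the left at -6.85. The 13 import genes spread from -1.92 to 1.72 around a median of 0.015, with none past the threshold.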

How the data were processed

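RNA of 6 samples was hybridised to Affymetrix whole-genome mouse arrays, 1 array per sample. The deposited values were log2 intensities, which the authors obtained with RMA; the submitters' processing notes name Partek too, without versions. A second deposited table holds the authors' own fold changes and p-values, of which no value was used here, only its gene annotation. Of 45101 probe sets, 64 controls were left out. The test of CPC against Ctl was limma's moderated test (version 3.58.1, R 4.3.3; lmFit, eBayes; two-sided), with Benjamini-Hochberg adjustment over 45037 probe sets and a threshold of 0.05. Symbols were updated through the file's Entrez identifier. Fold sizes written "at least" set arrays of the lower group that read under the background level of 6.55 to that level. Pairs of carriers were compared by exact two-sided permutation over arrays. The pipeline was tested on simulated data. The number of arrays limits the precision.

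The members, pairs and lists were chosen with earlier results of these data known. Every measured member is named but 1, which is counted and not reported here; values on all arrays are given for members past the threshold without overlap and for members of pairs, and from each partner list the largest fall and rise past the threshold are named. Other genes named with values were chosen after their values were seen. Among them are Slc25a34, Slc25a46, Got2, Mdh2, Vdac2, Mpc1, Timm13, Timm22, Timm29, Tomm20, Tomm70a, Ucp2, Ucp3 and the marker Acta2. Of 52 partner genes, 4 (Tomm5, Tomm6, Tomm7 and Cpt1b) had no probe set naming them alone and were not analysed here. The alternatives tried were other scalings, array weights, variance models and thresholds, other probe sets for a gene, dim probe sets left out, the replicate number as a block, and each array left out in turn.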

Additional observations from a re-analysis of the deposited data

How the results depend on the processing

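Against 6 falls and 2 rises among the members, a weight per array gave 13 falls and 3 rises, an equal-variance test without moderation 2 and 0, an adjusted p under 0.01 3 and 1, and the highest probe set without those that can match several transcripts 6 and 1. Leaving out 1 array gave 2 to 5 falls and 1 to 2 rises, and 5 to 14 falls and 0 to 1 rises among the 48 partner genes. The other settings (quantile normalization, median centring, dim probe sets left out, intensity trend, robust estimation, weight per group, mean of probe sets, a difference of at least 1) gave 5 to 7 falls and 2 rises. Over all genes, lower and higher calls were 924 and 237, with a weight per array 2894 and 4685, without moderation 302 and 74, at an adjusted p under 0.01 430 and 90, and, leaving out 1 array, 495 to 1145 and 94 to 529. Slc25a4 was not called with an intensity trend, and Slc25a46 was called under quantile normalization, a weight per array and the mean of probe sets. Whether the shared replicate numbers of the titles pair the arrays is not known. Same-number correlations of deviations from the group means were -0.0471, -0.0133 and -0.108, and the others ran from -0.0441 to 0.0929. Such deviations sum to 0 within a group, so these values cannot settle it. With the replicate block there were 2 falls and 2 rises, 4 of the 8 calls remaining, and 595 lower and 131 higher calls over all genes.

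No member past the threshold changed sign under any alternative. Members that did not pass changed sign with a weight per array (Slc25a14 -0.0035, Slc25a2 -0.25, Slc25a28 -0.030, Slc25a31 -0.020, Slc25a47 -0.035), with quantile normalization (Slc25a31 -0.047), over the mean of probe sets (Slc25a26 -0.50, Slc25a39 0.17) and with probe sets for several transcripts left out (Slc25a39 0.73). Leaving out 1 array, the ranges crossed 0 for Slc25a31 (-0.086 to 0.11), Slc25a35 (-0.15 to 0.0090), Slc25a39 (-1.21 to 0.038) and Slc25a47 (-0.14 to 0.26). They also did so for the pairs Slc25a4 minus Slc25a5 (-0.80 to 0.16), Slc25a12 minus Slc25a13 (-0.42 to 0.72), Slc25a33 minus Slc25a36 (-0.29 to 0.34) and Slc25a39 minus Slc25a40 (-0.47 to 0.81). Slc25a24 minus Slc25a25 was 0.60 with probe sets for several transcripts left out. The causes were not tested. Signal close to background limits the folds of Slc25a20, Slc25a11, Slc25a16, Slc25a12, Ckmt2 and Mcub to lower bounds for the probe sets read.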

Other observations

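The phosphate carrier gene Slc25a3 was outside the members because its 2 probe sets also name LOC100046151. Probe set 1416300_a_at was at 11.62, 11.01 and 10.67 in CPC and at 12.51, 12.90 and 12.66 in Ctl (-1.59, SE 0.278, limma adjusted p = 0.0279). Probe set 1440302_at was at 6.83, 7.41 and 7.48 in CPC and at 8.94, 9.40 and 8.81 in Ctl (-1.81, SE 0.256, limma adjusted p = 0.013). Both were lower on every CPC array. Mcart1 and Mcart6, which the array names by older symbols of Slc25a51 and Slc25a53, did not pass in any of their probe sets; Mcart1 in its brightest probe set was at 10.62, 9.08 and 8.20 in CPC and at 10.72, 10.70 and 11.11 in Ctl (-1.54, limma adjusted p = 0.224).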
